A study of Homo sapiens with 12 samples.

Results

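The enzymes described here make fatty acids and then lengthen, desaturate or activate them. They are 10 genes of 58735 in the deposited expression table, chosen by symbol with earlier results of these data known. ACLY and ACSS2 supply acetyl-CoA, and ACACA and FASN build the chain. ELOVL5 and ELOVL6 lengthen it, SCD, FADS1 and FADS2 put in double bonds, and ACSL3 joins fatty acids to coenzyme A. Each symbol belonged to 1 identifier in the table, and all 10 genes passed the filter on low values, a mean of at least 1 FPKM (reads scaled by the authors to gene length and to the library).

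RNA came from MSTO-211H, an established human mesothelioma cell line that the submitters describe as mesothelioma-initiating cells. It was grown in suspension in medium with EGF, bFGF, heparin and the supplement SM1. Of the groups of 3 libraries, Combo was read as 10 µM QTP with 4 Gy, Rx as 10 µM QTP with sham irradiation, IR as vehicle with 4 Gy and Con as vehicle with sham irradiation; the titles spell out neither Rx nor Combo, and the arms of the design leave these readings for them. The labels give QTP only by that abbreviation; the series title names dopamine receptor inhibition with radiotherapy, and RNA was taken 48 h after irradiation in every group. All the groups are 1 cell line, and no label gives separate cultures for the libraries of a group, so a p-value here measures the spread between libraries, which could be technical.

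Fatty acid synthesis turns cytosolic acetyl-CoA into malonyl-CoA and joins these units into palmitate, which elongases and desaturases then convert to the longer and unsaturated chains of membrane lipids. Many genes of this pathway are known targets of the sterol regulatory element-binding proteins (SREBPs), which are held in the endoplasmic reticulum when sterols are plentiful and released to the nucleus when they are scarce. The same factors act on the genes of cholesterol synthesis.

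With QTP averaged over both radiation arms, FADS1 was higher and passed the threshold over all tested genes. It was the only 1 of the 10 enzyme genes to pass, among 12 of 13038 tested genes (0.0920%). ACLY lay just outside, at a limma adjusted p of 0.0517 beside 0.0493 for FADS1. The FADS1 call held in 10 of 25 alternative fits. FADS1 averaged 18.3 ± 2.47 FPKM in the libraries with QTP and 12.1 ± 0.887 FPKM in those without (SD, n = 6 each), a ratio of 1.52. SCD had the largest change of the 10, a ratio of means of 2.28, but its libraries were spread widely and it did not pass. FADS2, ACSS2, FASN, ACSL3 and ACLY had ratios between 1.45 and 1.83, and ACACA, ELOVL5 and ELOVL6 between 1.08 and 1.16; none of these passed. Against Con, with 3 libraries a group, neither QTP alone nor radiation alone gave a call among the 10 or among all tested genes.

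The libraries held 13188257 to 18630958 reads, recovered from the FPKM values. Those with QTP were deeper on the whole, at 14925895 to 18630958 reads, against 13188257 to 16269195 in those without. Each enzyme gene had at least 460 reads in every library, the lowest being ACSS2, and at most 37740, for SCD. Mitochondrial genes took 8.70 ± 0.554% of reads in Combo, 9.08 ± 0.622% in Rx, 8.503 ± 1.90% in IR and 7.79 ± 1.29% in Con (SD, n = 3 each). IR 3 and Combo 3 lay at opposite ends of the first principal component, at 28.7 and -21.5, which held 26.5% of the variance. The part that depth, mitochondrial share or these libraries play in the results was not tested, apart from the fits without those libraries that are given below.

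The line was checked against markers. Of 10 mesothelial markers 4 passed the filter, with means over the 12 libraries of 40.1 FPKM for MSLN, 20.2 for CALB2, 476 for KRT8 and 549 for KRT18, while WT1 averaged 0.955 FPKM and PDPN was listed at 0. The marker sums ran from 686 to 1031 FPKM in Combo, 937 to 1243 in Rx, 1025 to 1419 in IR and 1025 to 1298 in Con, and all 4 that passed were lower with QTP averaged (median log2 change -0.29, 0 called by limma or voom and 2 lower at an unadjusted p under 0.05), where 48.1% of all tested genes were above 0 and 6.17% were lower at that p. Of 14 markers of immune, endothelial, fibroblast, fat and liver cells, 11 averaged under 0.1 FPKM, 3 of which (CD3E, LYZ and ADIPOQ) were listed at 0. Their sums ran from 7.25 to 10.7 FPKM in Combo, 6.47 to 8.34 in Rx, 7.51 to 8.501 in IR and 5.59 to 7.78 in Con, almost all of it COL1A1 and LUM. The part of either marker list in the enzyme results was not tested. In bulk RNA, fewer cells of a type and less RNA per cell cannot be told apart.

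ACLY, ATP citrate lyase, splits citrate exported from mitochondria into acetyl-CoA and oxaloacetate. The gene (ENSG00000131473, hg38, chromosome 17, 41866908 to 41930542, minus strand) had 136, 143 and 170 FPKM in the Combo libraries and 125, 163 and 139 FPKM in the Rx libraries, against 108, 91.0 and 85.4 FPKM in IR and 105, 111 and 103 FPKM in Con. Every library with QTP was above every library without it. With QTP averaged over radiation the log2 change of FPKM + 1 was 0.53 ± 0.085 (SE) at a limma adjusted p of 0.0517, just outside the threshold of 0.05, and its 95% interval ran from 0.34 to 0.72.

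ACSS2 makes acetyl-CoA from free acetate. The gene (ENSG00000131069, chromosome 20, 34872146 to 34927962, plus strand) had 10.1, 12.8 and 15.4 FPKM in Combo and 8.46, 21.2 and 8.99 FPKM in Rx, against 7.87, 7.27 and 6.21 FPKM in IR and 8.82, 8.03 and 6.44 FPKM in Con. Rx 2 stood far above Rx 1 and Rx 3, which lay close to the Con libraries, and Rx 1 was below the highest Con library. The change with QTP averaged was 0.65 ± 0.20 on the log2 scale (limma adjusted p = 0.285). GGT7, at a mean of 4.62 FPKM, overlaps 715 bases of this gene on the opposite strand, and whether strand was used in counting is not given in the sources used here.

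ACACA, acetyl-CoA carboxylase alpha, makes malonyl-CoA, the committed step. The gene (ENSG00000278540, chromosome 17, 37084988 to 37406818, minus strand) had 19.2, 22.9 and 21.9 FPKM in Combo and 15.95, 22.9 and 23.5 FPKM in Rx, against 17.7, 17.95 and 14.2 FPKM in IR and 17.3, 22.0 and 19.3 FPKM in Con. The groups overlapped except Combo and IR, which did not. The QTP change was 0.21 ± 0.10 (limma adjusted p = 0.482).

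FASN, fatty acid synthase, carries out the chain-building cycle that ends in palmitate. The gene (ENSG00000169710, chromosome 17, 82078333 to 82098332, minus strand) had 118, 167 and 182 FPKM in Combo and 97.0, 197 and 138 FPKM in Rx, against 104, 97.0 and 60.6 FPKM in IR and 104, 122 and 97.6 FPKM in Con. Rx 1 lay among the libraries without QTP and IR 3 was the lowest of the 12. The QTP change was 0.60 ± 0.19 (limma adjusted p = 0.302).

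ELOVL6 lengthens palmitate-sized saturated and monounsaturated chains, and ELOVL5 lengthens polyunsaturated ones. ELOVL6 (ENSG00000170522, chromosome 4, 110045846 to 110199199, minus strand) had 9.04, 10.1 and 10.0 FPKM in Combo and 8.92, 10.8 and 9.95 FPKM in Rx, against 8.82, 8.48 and 9.86 FPKM in IR and 8.85, 9.73 and 8.95 FPKM in Con. ELOVL5 (ENSG00000012660, chromosome 6, 53267398 to 53349179, minus strand) had 20.5, 24.1 and 23.2 FPKM in Combo and 22.8, 26.7 and 20.8 FPKM in Rx, against 18.7, 21.0 and 21.3 FPKM in IR and 22.1, 21.6 and 19.5 FPKM in Con. Both elongases overlapped between the libraries with and without QTP. Their QTP changes were the smallest of the 10, at 0.094 ± 0.057 for ELOVL6 (limma adjusted p = 0.565) and 0.14 ± 0.069 for ELOVL5 (0.467), with 95% intervals of -0.032 to 0.22 and -0.0080 to 0.30.

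SCD, stearoyl-CoA desaturase, makes monounsaturated fatty acids such as oleate from saturated ones. The gene (ENSG00000099194, chromosome 10, 100347124 to 100364834, plus strand) had 203, 330 and 368 FPKM in Combo and 152, 375 and 196 FPKM in Rx, against 140, 119 and 84.2 FPKM in IR and 160, 136 and 73.1 FPKM in Con. All the Combo libraries were above all those without QTP, while Rx 1 was below Con 1. The QTP change was 1.15 ± 0.26 (limma adjusted p = 0.153; 95% interval 0.57 to 1.73), the largest of the 10 in size and with the widest interval. SCD also had the highest mean of the 10 per length over the 12 libraries, although ACLY was above it in IR 3 and Con 3, and FASN in Con 3. The share of SCD in the summed FPKM of the 10 was 40.0 ± 3.96% in Combo, 35.3 ± 5.51% in Rx, 29.0 ± 2.43% in IR and 27.4 ± 7.09% in Con (SD, n = 3 each). This share was not tested.

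FADS1 and FADS2 are the delta-5 and delta-6 desaturases of polyunsaturated fatty acid synthesis. FADS1 (ENSG00000149485, chromosome 11, 61799625 to 61829318, minus strand) had 16.6, 19.7 and 20.7 FPKM in Combo and 14.9, 21.0 and 17.2 FPKM in Rx, against 11.9, 11.7 and 10.6 FPKM in IR and 12.6, 13.2 and 12.5 FPKM in Con. The libraries with QTP lay wholly above the others, as for ACLY. FADS1 rose with QTP averaged, by 0.56 ± 0.079 on the log2 scale (limma adjusted p = 0.0493; 95% interval 0.38 to 0.73), ranking 3 of 13038 tested genes by p. The call sits at the threshold: it held in 10 of 25 alternative fits, with adjusted p from 0.00735 to 0.265, and of the fits that leave out 1 library it held without Rx 1 alone and was lost without any other of the 12, while its log2 change ran from 0.48 to 0.61 over the 25. Among the 10 is the scaling by the median of ratios, which repeats the main fit.

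FADS2 (ENSG00000134824, chromosome 11, 61792980 to 61867354, plus strand) had 11.4, 16.8 and 16.5 FPKM in Combo and 10.2, 21.3 and 12.03 FPKM in Rx, against 8.38, 8.12 and 6.02 FPKM in IR and 8.41, 11.0 and 6.28 FPKM in Con. Rx 1 was below Con 2, and every other library with QTP was above all those without. The QTP change was 0.78 ± 0.18 (limma adjusted p = 0.157). The FADS1 gene lies wholly within FADS2 on the opposite strand, over 29694 bases, and FEN1, a flap endonuclease gene at a mean of 15.5 FPKM, overlaps FADS2 by 4265 bases on the same strand. Without the strand setting, reads of FADS1 and FADS2 may not be told apart, so these values are uncertain to that extent.

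ACSL3, a long-chain acyl-CoA synthetase of the endoplasmic reticulum and lipid droplets, activates fatty acids for use in complex lipids. The gene (ENSG00000123983, chromosome 2, 222860934 to 222944639, plus strand) had 29.3, 38.5 and 38.2 FPKM in Combo and 25.7, 41.9 and 33.6 FPKM in Rx, against 23.3, 22.6 and 20.3 FPKM in IR and 24.4, 26.9 and 21.1 FPKM in Con. Rx 1 was the sole library with QTP below any without. The QTP change was 0.55 ± 0.11 (limma adjusted p = 0.122).

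**Figure D1:**
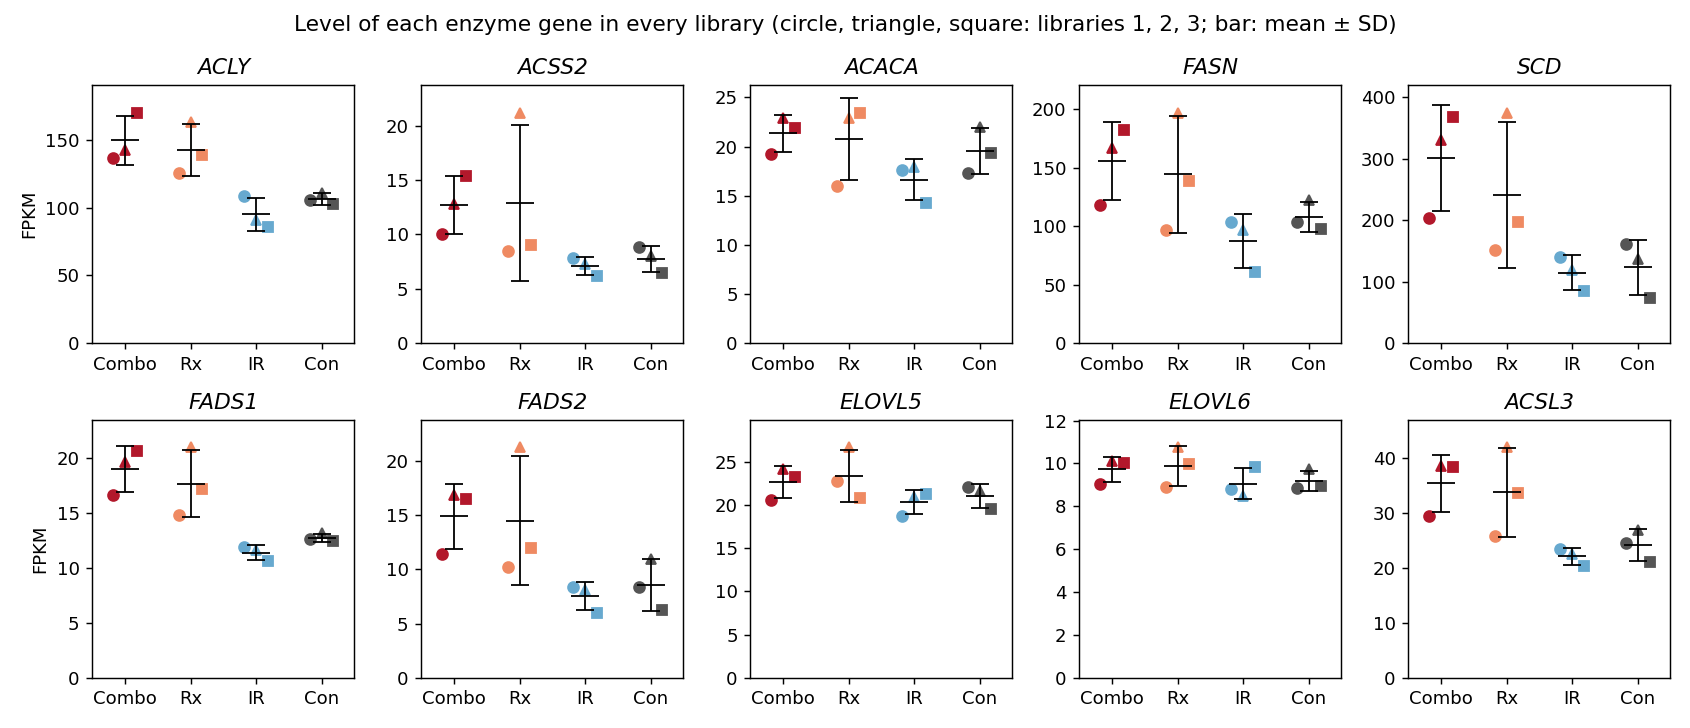
Level of each enzyme gene in FPKM (y axis, from 0) in every library of Combo, Rx, IR and Con; circles, triangles and squares are libraries 1, 2 and 3, and bars are the mean and SD of 3. ACLY and FADS1 separate all libraries with QTP from all without, Rx 2 is high for most genes, and ELOVL5 and ELOVL6 are nearly level across groups.

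Per length, the enzyme genes lay in separate tiers in Con. SCD (123.2 ± 45.02 FPKM), FASN (108 ± 12.8) and ACLY (106 ± 4.21) overlapped one another at the top (SD, n = 3 each). ACSL3 (24.1 ± 2.89), ELOVL5 (21.1 ± 1.38) and ACACA (19.5 ± 2.37) overlapped below them, and FADS1 (12.8 ± 0.380) lay apart, above ELOVL6 (9.17 ± 0.480), FADS2 (8.57 ± 2.37) and ACSS2 (7.76 ± 1.21); FADS2 overlapped with both of the others, and ELOVL6 lay just above ACSS2. In Combo, SCD at 300.5 ± 86.4 FPKM lay clear of FASN at 156 ± 33.7 and ACLY at 149.7 ± 17.99, and FADS2 at 14.9 ± 3.02 and ACSS2 at 12.7 ± 2.66 had higher means than ELOVL6 at 9.73 ± 0.597, although the lowest ACSS2 library overlapped with ELOVL6. The 10 genes summed to 742 ± 151 FPKM in Combo, 661 ± 217 in Rx, 390 ± 66.0 in IR and 440 ± 63.2 in Con.

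For SCD, ACLY and FADS1 and, as a gene with a small change, for ELOVL6, the 250 bases before RefSeq's transcription start are shown (RefSeq, build GRCh38.p14). Of the 10 genes 9 matched, FASN being the other. RefSeq's starts are not the outer ends of the genes in the deposited table: the windows of ACLY, FADS1 and ELOVL6 lie within the gene spans given above, and that of SCD runs past the start given there. ACLY had 2 overlapping windows, of which 1 is shown. Each is written 5′ to 3′ on the gene's strand, at chr10:100346983-100347232 (plus) for SCD, chr17:41919023-41919272 (minus) for ACLY, chr11:61817004-61817253 (minus) for FADS1 and chr4:110198616-110198865 (minus) for ELOVL6. Capitals mark CCAAT, the box bound by NF-Y, and GGGCGG, the GC box bound by SP1, on either strand (ATTGG and CCGCCC on the other).
SCD: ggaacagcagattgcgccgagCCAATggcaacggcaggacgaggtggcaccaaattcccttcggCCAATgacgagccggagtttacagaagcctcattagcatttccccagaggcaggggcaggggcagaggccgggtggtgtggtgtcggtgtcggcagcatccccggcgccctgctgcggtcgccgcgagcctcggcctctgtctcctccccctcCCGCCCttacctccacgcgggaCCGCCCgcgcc
ACLY: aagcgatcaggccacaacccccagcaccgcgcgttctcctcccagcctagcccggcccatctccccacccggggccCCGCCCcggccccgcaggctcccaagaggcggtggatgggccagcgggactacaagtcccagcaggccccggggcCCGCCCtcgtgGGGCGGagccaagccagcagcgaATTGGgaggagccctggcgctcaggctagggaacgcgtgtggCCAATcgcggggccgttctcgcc
FADS1: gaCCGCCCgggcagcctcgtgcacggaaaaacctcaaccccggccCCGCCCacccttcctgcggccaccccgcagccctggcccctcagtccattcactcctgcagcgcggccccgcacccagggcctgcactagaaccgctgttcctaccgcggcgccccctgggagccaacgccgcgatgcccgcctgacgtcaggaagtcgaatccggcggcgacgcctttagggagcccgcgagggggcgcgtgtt
ELOVL6: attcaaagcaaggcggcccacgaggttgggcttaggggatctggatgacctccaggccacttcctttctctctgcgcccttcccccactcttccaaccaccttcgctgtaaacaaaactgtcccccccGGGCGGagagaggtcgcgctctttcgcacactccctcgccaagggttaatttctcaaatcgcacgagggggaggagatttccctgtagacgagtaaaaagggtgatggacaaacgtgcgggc
The windows of SCD and ACLY held both motifs, and those of FADS1 and ELOVL6 held GGGCGG and no CCAAT. Among windows not shown, CCAAT was in that of ELOVL5 and some of ACACA, genes with small changes. It was also in that of ACSL3 and in some but not all of ACSS2, genes with larger changes. It was in no window of FADS2, which had a larger change too. Whether a motif goes with the change was not tested. Over the 14 windows of the 9 genes, some of which overlap as alternative starts of 1 gene, CCAAT was in 8 windows of 6 genes, against 32.0% of all 35116 RefSeq windows of this length, and GGGCGG in 11 windows of 8 genes, against 42.6%. The E-box CACGTG was in 1 window, of ELOVL5 (6.34% of all windows), and the sterol response element spelled TCACNCCAC was in 0 of 14 (0.883% of all windows). A spelling that rare would mostly be missing from 14 windows, so the 0 does not show that such sites are absent. These matches describe letters in a window, on both strands, and motifs were allowed to overlap.

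With QTP averaged over radiation (Combo and Rx against IR and Con), limma called 12 genes (0.0920% of those tested), of which 11 were higher, so 1 of the 10 enzymes was called higher where 0.0844% of all tested genes were called higher. At an unadjusted p under 0.05, 7 of 10 were higher, against 5.21% of tested genes, namely all but ACACA, ELOVL5 and ELOVL6. All 10 changes were above 0, against 48.1% of tested genes, with a median of 0.55 beside -0.0048 for all. Libraries with and without QTP did not overlap, and were higher with it, for ACLY and FADS1, against 0.621% of tested genes. By voom, which models the recovered reads, ACLY and FADS1 were called among 33 genes.

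The contrast of QTP in unirradiated cells, Rx against Con, called 0 genes by limma and 0 by voom; 425 genes were at an unadjusted p under 0.05. All 10 enzymes had a change above 0, against 51.7% of tested genes. At an unadjusted p under 0.05, 5 of them were higher, ACLY, SCD, FADS1, FADS2 and ACSL3, against 2.36% of tested genes. SCD changed by 0.93 ± 0.37 (SE) on the log2 scale, FADS2 by 0.66 ± 0.26, ACSS2 by 0.56 ± 0.28, ACSL3 by 0.45 ± 0.16, FADS1 by 0.43 ± 0.11 and ACLY by 0.41 ± 0.12, each with a limma adjusted p of 1.00. The groups did not overlap for ACLY and FADS1, against 4.60% of tested genes that were higher without overlap. Without Rx 2, the changes of ACSS2, FASN, SCD, FADS2 and ACSL3 were 0.16, 0.11, 0.56, 0.37 and 0.28, in place of 0.56, 0.36, 0.93, 0.66 and 0.45, and that of ACACA was -0.0058 in place of 0.072.

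QTP in irradiated cells, Combo against IR, shares no library with Rx against Con. Limma called 0 genes, voom 0, and 2278 genes were at an unadjusted p under 0.05. All 10 enzymes had a change above 0, against 47.4% of tested genes. At an unadjusted p under 0.05, 8 of them were higher, against 5.91% of tested genes, and the same 8 did not overlap between groups, against 8.53% higher without overlap, with ELOVL5 and ELOVL6 left. The log2 changes were 1.37 ± 0.37 for SCD, 0.90 ± 0.26 for FADS2, 0.85 ± 0.27 for FASN, 0.69 ± 0.11 for FADS1, 0.65 ± 0.12 for ACLY and 0.35 ± 0.15 for ACACA, with limma adjusted p of 0.171, 0.174, 0.180, 0.145, 0.145 and 0.262. Without IR 1, limma called 956 genes and 2 of the enzymes in this contrast.

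Between Combo and Con, in which both treatments differ, limma and voom called 0 genes and 1719 were at an unadjusted p under 0.05. All 10 enzymes had a change above 0, against 48.5% of tested genes. At an unadjusted p under 0.05, 6 of them were higher, against 5.49% of tested genes: ACLY, ACSS2, SCD, FADS1, FADS2 and ACSL3. SCD changed by 1.31 ± 0.37 and FADS1 by 0.53 ± 0.11, with limma adjusted p of 0.190 and 0.127. The groups did not overlap for these 6, against 10.0% higher without overlap. This contrast shares Con with Rx against Con and Combo with Combo against IR.

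**Figure D2:**
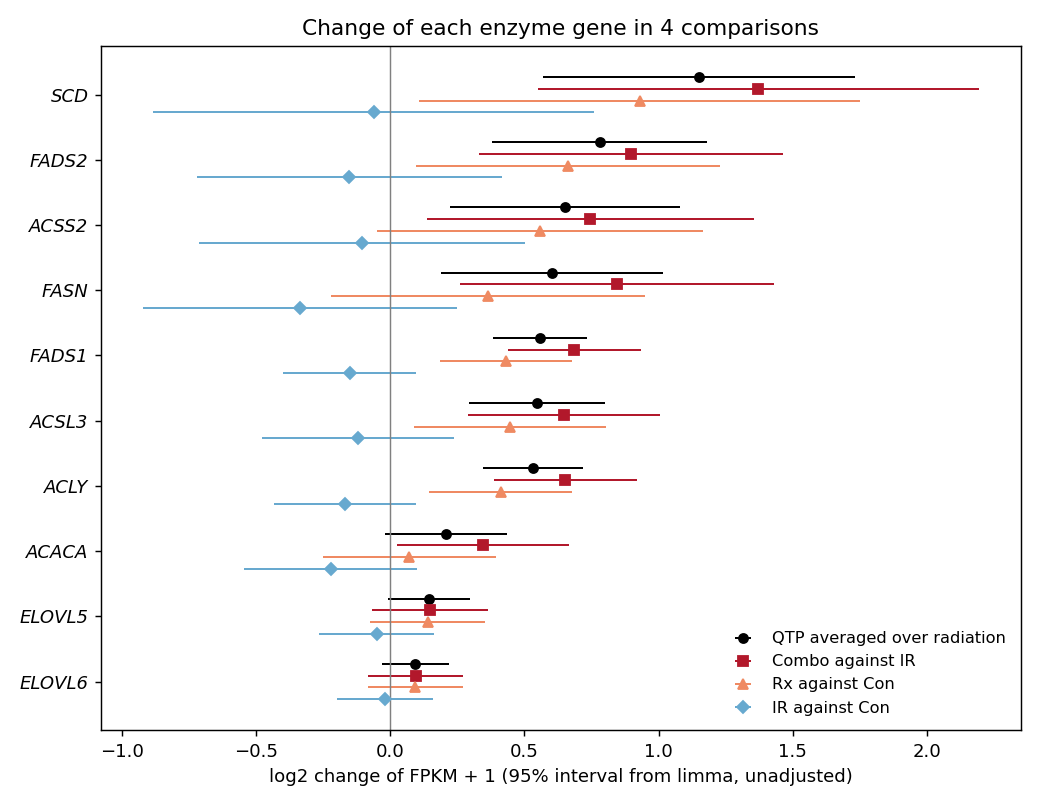
Change of each enzyme gene as the log2 difference of FPKM + 1 (x axis), with the unadjusted 95% interval from limma, for QTP averaged over radiation, Combo against IR, Rx against Con and IR against Con. SCD has the largest QTP change (1.15) with the widest interval, FADS1 and ACLY smaller ones with narrow intervals, and the intervals of IR against Con all include 0.

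Radiation with vehicle, IR against Con, called 0 genes by limma and 0 by voom, with 894 genes (6.86%) at an unadjusted p under 0.05 and 0 of the 10 enzymes among them. All 10 changes were below 0, where 52.6% of tested genes were above 0, from -0.34 ± 0.27 for FASN to -0.019 ± 0.081 for ELOVL6, with a median of -0.14 beside 0.0081 for all tested genes. FADS1 did not overlap between the groups and was lower in IR, at 11.4 ± 0.661 FPKM against 12.8 ± 0.380 FPKM in Con (SD, n = 3 each), where 4.98% of tested genes were lower without overlap; its log2 change was -0.15 ± 0.11 (limma adjusted p = 0.781). Without IR 3 the change of FASN was -0.098. The sign turned in some alternative fits for SCD, FADS2, ELOVL5 and ELOVL6. Fitted with a replicate block, limma called 0 genes and voom 2, neither of them an enzyme of the 10. IR is also the denominator of Combo against IR, so low values in IR enter both.

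Radiation on top of QTP, Combo against Rx, called 0 genes by limma and 0 by voom (1188, or 9.11%, at an unadjusted p under 0.05, 0 of them enzymes of the 10). The changes ran from -0.042 ± 0.098 for ELOVL5 to 0.38 ± 0.37 for SCD, 8 above 0, against 46.0% of tested genes, and 2 below. SCD was 0.10 without Rx 1, 0.75 without Rx 2, 0.64 without Combo 1 and 0.21 without Combo 3. With radiation averaged over both QTP arms, limma and voom called 0 genes (1109, or 8.51%, at an unadjusted p under 0.05, 0 of them enzymes of the 10). SCD alone was above 0, against 48.5% of tested genes, and the changes ran from -0.096 ± 0.19 for FASN to 0.16 ± 0.26 for SCD. The signs of these small differences turned in alternative fits for 9 of 10 and 10 of 10 genes.

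The interaction asks whether the QTP change differed between irradiated and unirradiated cells. It called 0 genes by limma and 0 by voom, with 995 (7.63%) at an unadjusted p under 0.05 and 0 of the 10 enzymes among them. All 10 values were above 0, against 44.9% of tested genes, from 0.00069 ± 0.11 for ELOVL6 to 0.48 ± 0.38 for FASN, with FADS1 at 0.26 ± 0.16 (95% interval -0.093 to 0.60). Without Rx 1 the values were 0.23 for FASN and 0.14 for FADS1, without Rx 2 that of FASN was 0.74, without IR 3 it was 0.24, and without both IR 3 and Combo 3 the values were 0.12 for FASN and 0.15 for FADS1. The larger QTP changes in irradiated cells, given above, were therefore not shown to differ from those in unirradiated cells, and the intervals do not show that they were alike.

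The 10 genes also varied together from library to library. Rx 2 had the highest level of all 12 libraries for 8 of 10, and Rx 1 the lowest of its group for 9. Combo 1 was the lowest of its group for all 10, IR 3 the lowest of the 12 for 7, and Con 3 the lowest of its group for 8. The number of the 10 genes above every library without QTP was 6 in Combo 1, 10 in Combo 2, 9 in Combo 3, 3 in Rx 1, 10 in Rx 2 and 9 in Rx 3. For these 10 genes the libraries with QTP therefore differed among themselves, and Rx 1 was closest to those without. Such counts were not made over all tested genes. Whether they are particular to these enzymes or hold for the whole library was not tested.

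As a description over the 12 libraries, which include the group differences, the 45 pairs of members correlated at a Pearson r of 0.380 to 0.979 with a median of 0.811. With each group's mean taken off, the range was 0.0918 to 0.951 and the median 0.775, so the genes varied together between libraries of 1 group as well. The points share their library and its scaling, and after centring 8 degrees of freedom remain. The signs of the enzyme genes, counted above for each comparison, are therefore not separate observations.

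**Figure D3:**
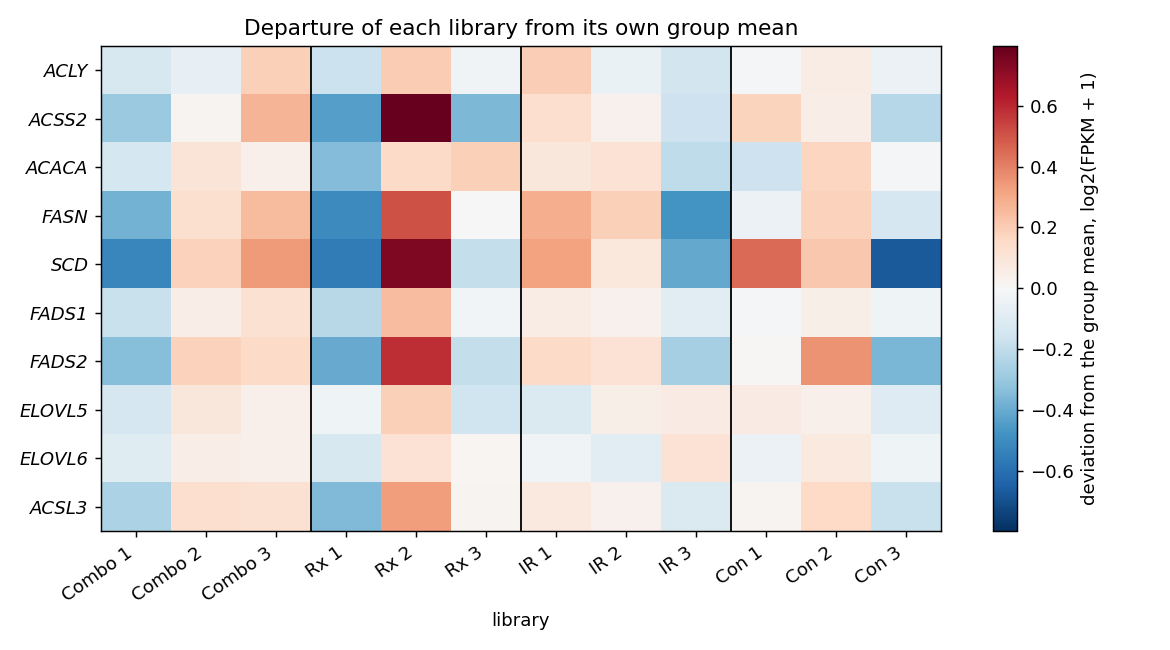
Departure of each library (columns, grouped as Combo, Rx, IR and Con) from its own group mean for each enzyme gene (rows), as the difference of log2(FPKM + 1); red is above and blue below the group mean. Rx 1 and Combo 1 are low and Rx 2 high across most rows, with SCD and ACSS2 the widest and ELOVL5 and ELOVL6 the narrowest.

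Among the genes whose pattern was most like the mean standardised profile of the 10, by Pearson r over the 12 libraries, were LSS (0.989), HMGCS1 (0.988), MVD (0.988), INSIG1 (0.983), SQLE (0.980), RUSC1-AS1 (0.974), PCYT2 (0.972) and IDI1 (0.967). LSS, HMGCS1, MVD, SQLE and IDI1 encode enzymes of cholesterol synthesis. INSIG1 encodes a protein of the endoplasmic reticulum that holds back SREBP processing, and PCYT2 an enzyme of phosphatidylethanolamine synthesis. Of the members themselves ACSL3 (0.992) and FADS2 (0.984) were closest to the profile they help define and ELOVL5 (0.777) and ELOVL6 (0.761) farthest from it.

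**Figure D4:**
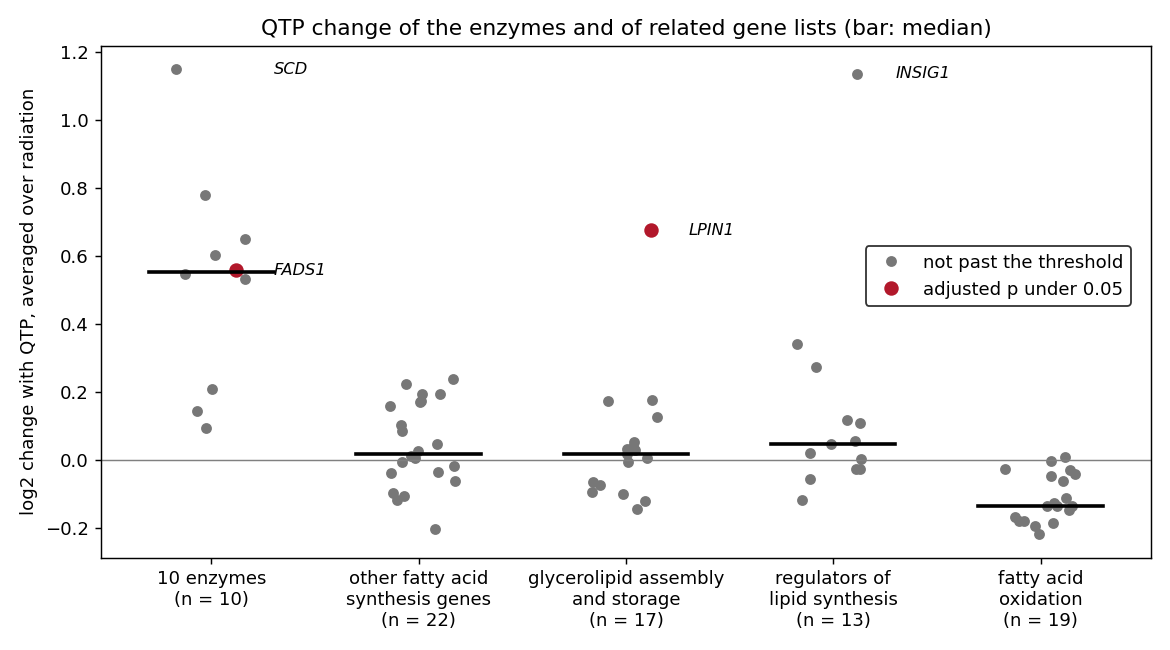
Log2 change with QTP averaged over radiation (y axis) of each tested gene in the 10 enzymes and in 4 related gene lists; horizontal bars are medians and red points are past the adjusted p of 0.05. The enzymes have a median of 0.55, the medians of the 4 other lists lie near or below 0, and FADS1 and LPIN1 are the genes past the threshold. The enzymes and the other lists were chosen with earlier results of these data known.

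Other genes of fatty acid metabolism were set beside the enzymes. Of 29 other genes of synthesis, elongation, desaturation and activation, 22 passed the filter. With QTP averaged 13 were above and 9 below 0, with a median of 0.017, 0 called by limma and 0 by voom. Of all tested genes 48.1% were above 0. At an unadjusted p under 0.05, 6 were higher and 1 lower, against 5.21% and 6.17% of tested genes. The smallest p-values were those of ACSL4, another acyl-CoA synthetase, at 0.22 ± 0.042 (limma adjusted p = 0.0885), and HSD17B12, a ketoacyl reductase of elongation, at 0.24 ± 0.057 (0.170). ACSL4 averaged 26.8 ± 1.36 FPKM in Combo, 24.3 ± 1.201 in Rx, 21.6 ± 0.335 in IR and 21.8 ± 0.523 in Con (SD, n = 3 each).

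Of 17 genes of glycerolipid assembly and storage, LPIN1 rose and was the only 1 called by limma. With QTP averaged 10 were above and 7 below 0, with a median of 0.016. At an unadjusted p under 0.05, 3 were higher, LPIN1 among them, and 1 lower, against 5.21% and 6.17% of tested genes. LPIN1, a phosphatidate phosphatase, averaged 20.4 ± 2.95 FPKM in Combo and 19.7 ± 3.88 FPKM in Rx, against 11.1 ± 0.963 FPKM in IR and 13.2 ± 1.01 FPKM in Con (SD, n = 3 each), a log2 change with QTP averaged of 0.68 ± 0.098 (limma adjusted p = 0.0493), and voom called it too. As for FADS1, the call held in 10 of 25 alternative fits, the median of ratios that repeats the main fit among them. Of those leaving out 1 library, it held without Rx 1 alone. Of 22 genes of fatty acid oxidation 19 were tested and 18 of these were below 0, with a median of -0.13, 0 called by limma, 0 by voom and 7 lower at an unadjusted p under 0.05, against 6.17% of tested genes lower at that p and 48.1% above 0. ACADVL, the very long chain acyl-CoA dehydrogenase, changed by -0.18 ± 0.055 (limma adjusted p = 0.288), and ECHS1, the short-chain enoyl-CoA hydratase, by -0.22 ± 0.068 (0.298). In Combo against IR 18 of the 19 oxidation genes were below 0 (median -0.21), 8 at an unadjusted p under 0.05 (11.6% of tested genes). In Rx against Con 13 were below 0 (median -0.048), 0 at that p (0.897%). In Combo against Rx 17 were below 0 (median -0.16), 5 at that p (6.30%). Tested genes above 0 were 47.4%, 51.7% and 46.0% in these contrasts.

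Of 15 regulators of lipid synthesis 13 were tested, 9 above 0, with a median of 0.045, 0 called by limma and 0 by voom. At an unadjusted p under 0.05, 3 were higher and none lower. Of all tested genes 48.1% were above 0 and 5.21% were higher at that p. INSIG1 averaged 71.4 ± 22.3 FPKM in Combo and 71.0 ± 44.9 FPKM in Rx, against 28.4 ± 5.13 FPKM in IR and 31.8 ± 10.5 FPKM in Con (SD, n = 3 each), a QTP change of 1.14 ± 0.28 (limma adjusted p = 0.180). SREBF2, the SREBP that acts mainly on sterol genes, changed by 0.34 ± 0.10 (0.282). SREBF1, the other SREBP gene, was also higher at an unadjusted p under 0.05, by 0.27 ± 0.091 (limma adjusted p = 0.330).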

How the data were processed

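RNA sequencing was measured in 12 libraries, 3 each of Combo, Rx, IR and Con, grouped and numbered by their titles. The authors deposited FPKM per gene (58735 genes), with identifiers, coordinates and gene lengths, per the file headers. Per the submitters' processing notes, reads were placed on hg38. Which aligner and counter were used, with which strand setting and library scaling, is not given in the sources used here. Per the labels, libraries were made with a NEBNext Ultra RNA kit. FPKM times gene length gave whole multiples of 1 step per library in 100% of values (tolerance 0.01 of a read), so reads were recovered; 0 value columns lacked a sample.

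Values were taken as log2(FPKM + 1), a scale that understates changes of low genes, for 13038 genes (10751 protein-coding) that averaged 1 FPKM or more. Group means over all 12 libraries were fitted with limma (version 3.58.1, under R 4.3.3), using its variance trend and moderated two-sided tests, and p-values were adjusted over all tested genes by the Benjamini-Hochberg method, with a threshold of 0.05. The fit was run on simulated reads with known changes, in which the genes of a library shared no shift. The enzyme genes here varied together between libraries, so that run does not bear on calls near the threshold. Intervals are unadjusted. Coordinates are as the table gives them.

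The enzymes and the other lists were chosen with earlier results of these data known. SREBF1 is named in addition to the genes that the next rule gives. All 10 enzymes are named, with every called gene of the other lists or otherwise the 2 of smallest p with QTP averaged, and the genes among the 10 most like the enzymes' profile; some of these, and a short reference list of sterol genes, are not reported here. Alternatives changed the pseudocount (0.1), the filter (none, or 5 FPKM), the scaling (TPM, median of ratios, quantiles), the data in the fit (compared groups alone, protein-coding genes alone, single libraries left out, IR 3 and Combo 3 left out) and the model (no trend, quality weights, a replicate block, voom on reads). Same-numbered libraries correlated above 0.1, in their deviations from the group means, in all 3 pairs of Rx with Con (0.191 to 0.282) and of IR with Con (0.161 to 0.354). This is a hint of pairing from the data and not from the labels. Every other pair of groups, Rx with IR among them, had at least 1 pairing below 0.1. The criterion therefore gives no single pairing of all the groups, and the main fit used none.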

Additional observations from a re-analysis of the deposited data

How the results depend on the processing

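With QTP averaged over radiation, the changes of all 10 enzymes stayed above 0 in all 25 alternatives, and so did those of Combo over IR and over Con in 26 each. Not all of these could move a change. Both filters, the median of ratios, no variance trend, the replicate block and protein-coding genes alone left each log2 change as it was. For Combo over IR and over Con, so did the fit of the compared groups alone and leaving out a library of another group. Calls depended on the setting. Against 12 genes and 1 enzyme called with QTP averaged, no filter gave 6 and 0, a mean of at least 5 FPKM 24 and 2, TPM 1 and 0, quantiles 23 and 2, no variance trend 0 and 0, voom 33 and 2, protein-coding genes alone 30 and 2, and leaving out IR 3 and Combo 3 0 and 0. Leaving out 1 library gave 0 to 18 genes and 0 to 3 enzymes. ACLY was called in 8 of the 25, ACSL3 in 3, SCD and FADS2 in 2 each, and ACSS2 and FASN in 0.

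Where 0 genes were called, dropping the filter gave 5 genes for Combo and 5 for IR, each over Con, 1 for Rx over Con, 6 for Combo over IR, 4 for Combo over Rx, 5 for radiation averaged and 6 for the interaction. TPM gave 3 for Combo over Con and 1 each for Combo over IR, Combo over Rx, radiation averaged and the interaction. Leaving out 1 library gave 0 to 3 in IR against Con, 0 to 956 in Combo against IR (with 0 to 2 enzymes), 0 to 1 for radiation averaged and 0 to 3 for the interaction. Library quality weights, whose estimate did not converge, gave 178 genes and 1 enzyme in Combo against Con, 1013 genes in IR against Con, 4496 genes and 8 enzymes in Combo against IR, 777 and 5 with QTP averaged, and 359 with radiation averaged. The cause was not tested for any of these.

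Some signs turned. ACACA in Rx against Con was -0.016 under TPM, -0.089 with quality weights and -0.022 to 0.24 with 1 library left out. SCD in IR against Con was 0.033 with quality weights, 0.14 without IR 3 and Combo 3, and -0.40 to 0.16 with 1 library left out; likewise FADS2 ran from -0.33 to 0.028, ELOVL5 from -0.10 to 0.0061 and ELOVL6 from -0.076 to 0.022. In the interaction ACSS2 was -0.030 without IR 3 and Combo 3 and ran from -0.030 to 0.59, ELOVL5 was -0.016 with quality weights and ran from -0.071 to 0.10, and ELOVL6 ran from -0.064 to 0.058. The median interaction of all tested genes was 0.17 under TPM and -0.025 as deposited, and under TPM the changes are relative to that shift; the deposited values already had equal median-of-ratios factors.

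The main fit did not take equal replicate numbers as pairs. Over all groups same-numbered libraries correlated above 0.1 in 11 of 18 pairings (-0.207 to 0.354), and 10 of 12 libraries were closest to their own number. Whether the numbers mark pairs is therefore not settled. In Rx against Con the block changed no call. Limma with a replicate block called 90 genes and 0 enzymes in Combo against Con, 12 and 1 with QTP averaged, and 3 genes with radiation averaged. Voom with the block, added after seeing the data, called 287 genes and 2 enzymes in Combo against Con, 2 genes in IR against Con, 46 and 4 in Combo against IR, 82 and 5 with QTP averaged, and 78 genes with radiation averaged. The count models edgeR and DESeq2, planned for recovered reads, were not run. Each group had 3 libraries, and the FADS1 call lies at the threshold.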
